A study of Homo sapiens with 3 samples.

Results

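The regions described here are the YBX1 peaks on 3 multicopy stretches of the human genome: the 5S ribosomal RNA gene array of chromosome 1, the REXO1L repeat array of chromosome 8, and a nuclear copy of mitochondrial DNA near the start of chromosome 1. They were chosen on measured values, namely the positions and gene names in the deposited peak lists: peaks at chr1:228600000-228785000 for the 5S array, chromosome 8 peaks named for REXO1L2P for the REXO1L array, and peaks at chr1:564000-570500 for the mitochondrial insert (all hg19). By this rule 111 of 22874 peaks in replicate 1 and 216 of 17285 in replicate 2 were members, 327 of 40159 rows over both lists. Both groups of libraries came from HEL, an established human erythroleukaemia cell line that carries a mutated JAK2, grown without drug treatment. The ChIP group was chromatin pulled down with an antibody to YBX1 and sequenced in 2 replicates, and the control was 1 input library from the same line. Whether the replicates came from separate cultures is not stated in the labels, so their spread may be technical. Because the peaks themselves chose the members, all values below are descriptions with no test.

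YBX1 belongs to the Y-box family, whose cold-shock domain contacts nucleic acids, and it is known both as a DNA-binding regulator of transcription and as a packaging protein of messenger RNA. The 5S ribosomal RNA of the large ribosomal subunit is made by RNA polymerase III from short genes repeated head to tail, and CpG islands are stretches rich in CG dinucleotides that often lie at gene starts. REXO1L genes and pseudogenes are tandem copies related to an RNA exonuclease gene, and a nuclear mitochondrial insert is a piece of mitochondrial DNA that was copied into a chromosome. Reads from such near-identical copies can align equally well in several places. The placement of reads that fit several copies is described in none of the sources used here, so the value of any single copy is uncertain, and reads of mitochondrial DNA cannot be told apart from reads of the insert. Neither list, as used here, held a peak on the mitochondrial chromosome (0 in each).

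The letters of the 5S array itself were not used here; those of the gene starts on either side of it are shown as its surroundings and say nothing of the repeat. In the gene order of RefSeq (GRCh38.p14), 17 RNA5S genes lie between RNF187, which encodes a RING finger ubiquitin ligase, and DUSP5P1, a pseudogene of the phosphatase gene DUSP5. The RefSeq entry of RHOU, a protein-coding gene, starts beside DUSP5P1. Whether its coding transcript starts there too was not determined, and the start of RHOU below means the start of that entry. The 250 bases before the start of RHOU and of RNF187 are shown because a peak was labelled at the start of a transcript that RefSeq lists under RHOU and none at that of RNF187. The peaks are placed on hg19, so where they lie relative to these windows was not determined. They are given 5′ to 3′ on the + strand of GRCh38.p14, from RefSeq, at chr1:228644397-228644646 for RHOU and chr1:228487132-228487381 for RNF187, with each CG dinucleotide in capitals.
RHOU: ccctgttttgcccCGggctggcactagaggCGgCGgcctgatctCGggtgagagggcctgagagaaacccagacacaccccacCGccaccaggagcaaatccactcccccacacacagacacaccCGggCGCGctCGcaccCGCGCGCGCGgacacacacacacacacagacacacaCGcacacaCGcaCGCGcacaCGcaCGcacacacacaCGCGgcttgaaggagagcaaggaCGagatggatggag
RNF187: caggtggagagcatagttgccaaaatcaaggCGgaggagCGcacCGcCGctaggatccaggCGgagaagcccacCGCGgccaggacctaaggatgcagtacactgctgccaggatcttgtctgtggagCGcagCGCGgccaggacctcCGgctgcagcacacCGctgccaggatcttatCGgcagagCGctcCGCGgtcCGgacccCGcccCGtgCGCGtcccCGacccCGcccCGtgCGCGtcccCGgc
The RHOU window held 23 CG dinucleotides and the RNF187 window 27, against a median of 11 over 35116 RefSeq promoter windows of the same length. As many or more were found in 25.8% of those windows for RHOU and in 17.7% for RNF187, and the GC content was 65.6% and 69.6%. The Y-box motif core CCAAT, searched on both strands (ATTGG on the other), was in neither window and was in 32% of all promoter windows.

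The peaks on the 5S array filled a dense stretch at chr1:228744342-228782428, 38.1 kb long, and nearly all of them carried a CpG island label. Replicate 1 had 38 member peaks and replicate 2 had 104. Of these, 36 of 38 in replicate 1 (94.7%, 95% Wilson interval 82.7 to 98.5) and 103 of 104 in replicate 2 (99%, 94.8 to 99.8) were labelled CpG island in the authors' annotation, whereas the label was on 0.459% of all replicate 1 peaks and 1.08% of all replicate 2 peaks. These intervals, like all others below, cover counting error only. Members were chosen by position, and how much of the stretch the CpG island annotation spans was not determined. The 5S array held 34.3% (25.9 to 43.8) of all CpG island peaks of replicate 1, 36 of 105, and 55.4% (48.2 to 62.3) of those of replicate 2, 103 of 186. The exceptions were 2 peaks in replicate 1, one at the start of DUSP5P1 and one on a MER34 retroviral repeat, and 1 peak in replicate 2, at the start of a RHOU transcript (chr1:228779478-228779612, 14 tags).

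Peaks stood along the whole dense stretch rather than at one place. In successive 10 kb stretches replicate 1 had 9, 9, 9 and 10 peaks with 79, 87, 103 and 106 tags, and replicate 2 had 29, 22, 26 and 27 peaks with 394, 291, 336 and 362 tags (the last stretch is shorter). Peaks covered 7.82% of the dense stretch in replicate 1 and 29.5% in replicate 2. Neighbouring summits were a median of 814 bp apart in replicate 1 and 255 bp in replicate 2. Toward the far end, 5 of 38 peaks in replicate 1 (13.2%) and 12 of 104 in replicate 2 (11.5%) had a promoter class, against 3.28% and 3.42% of the whole lists, and all of them were named for DUSP5P1 and RHOU. Ahead of the dense stretch the window held no replicate 2 peak and a single replicate 1 peak, at chr1:228608221-228608280 on the MER34 repeat, 137 kb before the next member. No member was labelled at the start of RNF187.

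**Figure D1:**
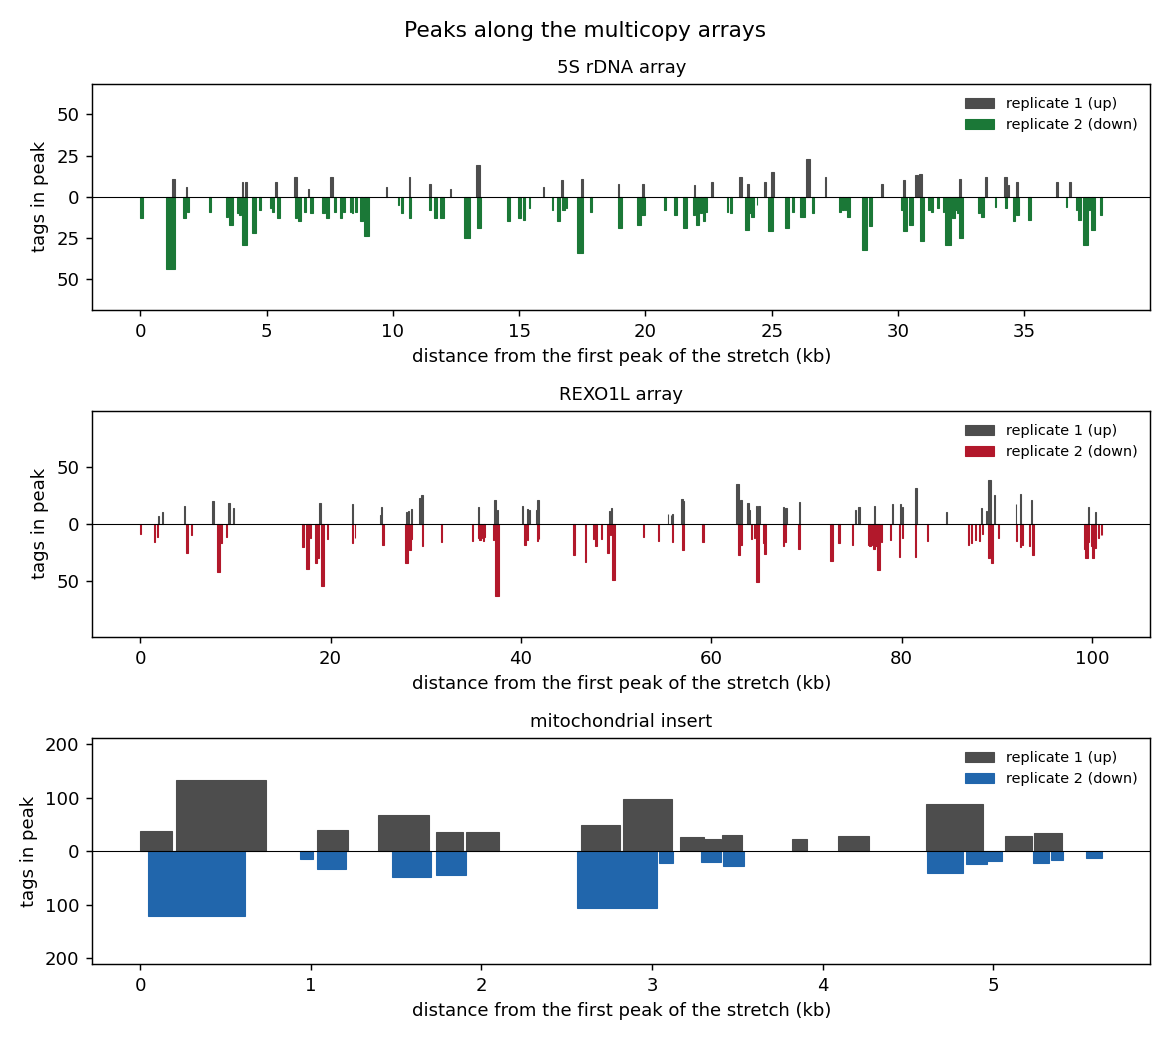
Tags per peak (vertical axis, bars as wide as the peak) against the distance from the first peak of each dense stretch (kb), with replicate 1 upward and replicate 2 downward. Replicate 2 has 104 peaks against 37 of replicate 1 on the dense 5S stretch, whereas on the insert the replicates have 15 and 16.

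The 5S peaks were ordinary in tags and low in fold. A 5S peak had 5 to 23 tags (median 9) in replicate 1 and 5 to 44 tags (median 11) in replicate 2. The median peak ranked at the 52.2nd percentile of its list by tags in replicate 1 and at the 62.6th in replicate 2. By fold enrichment, which is the authors' value of summit tags over the input-based local level, it ranked at the 1.55th percentile in replicate 1 and at the 2.68th in replicate 2, with median folds of 15.4 and 14.5. Only 2 of 38 peaks in replicate 1 (5.26%) and 24 of 104 in replicate 2 (23.1%) reached p 1e-10, against 53.9% and 52.4% of all peaks. CpG island peaks outside the 3 stretches were also low in fold, with medians of 24.6 in replicate 1 and 16.9 in replicate 2. These lay at the 6.34th and 3.49th percentiles, and 13.2% and 6.33% of those peaks reached p 1e-10. In replicate 2 that share was below the one on the 5S array. The strongest 5S peak by tags was chr1:228770709-228770868 in replicate 1, with 23 tags and a fold of 15.46, and chr1:228745359-228745696 in replicate 2, with 44 tags and a fold of 17.82. At the second of these places replicate 1 had a peak of 11 tags with a fold of 7.05, its lowest fold on the array.

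Gene names on the 5S peaks came from neighbours on both sides. DUSP5P1 and RHOU were each named for 37 of 38 replicate 1 peaks and for 104 of 104 replicate 2 peaks. RNF187 and BTNL10, a butyrophilin-like gene, were each named for 33 peaks in replicate 1 and 92 in replicate 2. The microRNA MIR4666A was named for 6 and 15 peaks, and the histone genes HIST3H2BB for 3 and 4 and HIST3H2A for 1 and 2. The histone gene HIST3H3, the microRNA MIR6742 and the ubiquitin ligase genes TRIM11 and TRIM17 were named once each, for the MER34 peak of replicate 1. That MER34 peak had 6 tags and a fold of 67.42, where the other replicate 1 members on the array reached at most 28.4. None of these symbols names a 5S gene.

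The replicates differed most on the 5S array. The peaks held 381 tags in replicate 1, which is 38.1 per 1000000 kept tags, and 1383 tags in replicate 2, 139 per 1000000. This is 3.66 times as much in replicate 2 as in replicate 1. The covered length was 3038 bp in replicate 1 and 11238 bp in replicate 2, a ratio of 3.7 for replicate 2 over replicate 1, and the tags per 100 covered bp were 12.5 and 12.3. Replicate 2 thus had more and wider peaks at a like density of tags within them. Over the rest of the list as a whole the order was the other way. It held 38339 tags per 1000000 in replicate 1 and 24862 in replicate 2, 0.648 times as much in replicate 2. CpG island peaks outside the 3 stretches numbered 68 in replicate 1 and 79 in replicate 2. Their order was that of the 5S array, with 60.4 tags per 1000000 in replicate 1 and 75.9 in replicate 2.

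Overlap between replicates on the 5S array depended on the side from which it was counted. Of replicate 1 peaks, 20 of 38 (52.6%, 37.3 to 67.5) overlapped a replicate 2 peak by at least 1 bp, against 54% of the whole list. Of replicate 2 peaks, 20 of 104 (19.2%, 12.8 to 27.8) overlapped a replicate 1 peak, against 77.6% of the whole list. The first share is near the background of its list. The peaks of replicate 2 covered 29.5% of the dense stretch, so some overlap comes with that coverage. CpG island peaks outside the member stretches overlapped in 16 of 68 cases in replicate 1 (23.5%, 15 to 34.9). In replicate 2 they did so in 11 of 79 (13.9%, 7.96 to 23.2). The low replicate 2 share was thus not particular to the 5S array, and in replicate 1 the 5S share was the higher. Merging the member peaks of both lists gave 121 sites, of which 19 (15.7%) were in both, 18 in replicate 1 alone and 84 in replicate 2 alone. Only members were merged, here and on the other stretches below. The shares of merged sites thus have no whole-list share to be set against. At the 19 shared sites replicate 2 had more tags per 1000000 in 17, with a median log2 ratio of replicate 2 over replicate 1 of 0.66 (range −0.77 to 2.01). The tags of the shared sites correlated weakly across the 19 sites (Spearman 0.29, Pearson 0.29 on the log2 scale), which share the same input library, and the weak value is no finding.

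The REXO1L array carried 57 member peaks in replicate 1 and 97 in replicate 2, and its peaks often recurred at a like distance. All but 1 lay within 101 kb at chr8:86739555-86840658. The remaining one, on a TAGA repeat at chr8:86921623-86921669 in replicate 2, lay 81 kb farther on, with 7 tags and a fold of 53.81, where the other replicate 2 members reached at most 23.1. REXO1L2P, a transcribed pseudogene, was the gene named for all 57 and 97 peaks, by the rule that chose them. CpG island labels were on 1 of 57 peaks in replicate 1 (1.75%, 0.31 to 9.29) and on 4 of 97 in replicate 2 (4.12%, 1.62 to 10.1). These shares were below those on the 5S array. The interval of replicate 1 includes the 0.459% of its whole list, and that of replicate 2 lies above the 1.08% of its list. All of these labelled member peaks lay in 1 place, between chr8:86826804 and chr8:86828092. The label was also on peaks of the same stretch without a gene name, which are described below. The promoter class was on 2 peaks (3.51%) in replicate 1 and 9 (9.28%) in replicate 2, against 3.28% and 3.42% of the whole lists.

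Distances between REXO1L summits gathered near 12.2 kb. Counting pairs of one summit from each replicate, the most pairs within 50 bp of a distance, 33, fell at 12185 to 12195 bp, against a median of 9 pairs over distances of 3000 to 20000 bp. Within replicate 1 the most pairs were 12 at 12230 bp (median 3), and within replicate 2 they were 22 at 12145 bp (median 8). The 3 counts were thus highest at nearly the same distance. Peaks labelled with an AluJb repeat, a short interspersed element, showed it at most steps in replicate 1. There 6 such peaks started 12246, 15273, 12182, 12188 and 12198 bp apart, and the step of 15273 bp was longer. In replicate 2 the 4 AluJb peaks were 12294, 39513 and 12327 bp apart, and the 39513 bp step spans the place of the 15273 bp step.

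Summit distances on the 5S array showed a weaker pattern. Between replicates the most pairs were 34 at 2250 bp, against a median of 19 over distances of 500 to 6000 bp. Within replicate 2 the highest count was 40 at 3350 bp (median 26), and 39 pairs lay at 2230 bp. Within replicate 1 no distance held more than 8 pairs (median 3). The distance near 2.25 kb was thus the highest between replicates but not within either replicate. Between 4200 and 4700 bp, the most pairs were 29 at 4470 to 4480 bp between replicates and 38 at 4475 bp within replicate 2. Within replicate 1 they were 8 at 4440 to 4445 bp, a count also reached at 5995 bp.

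**Figure D2:**
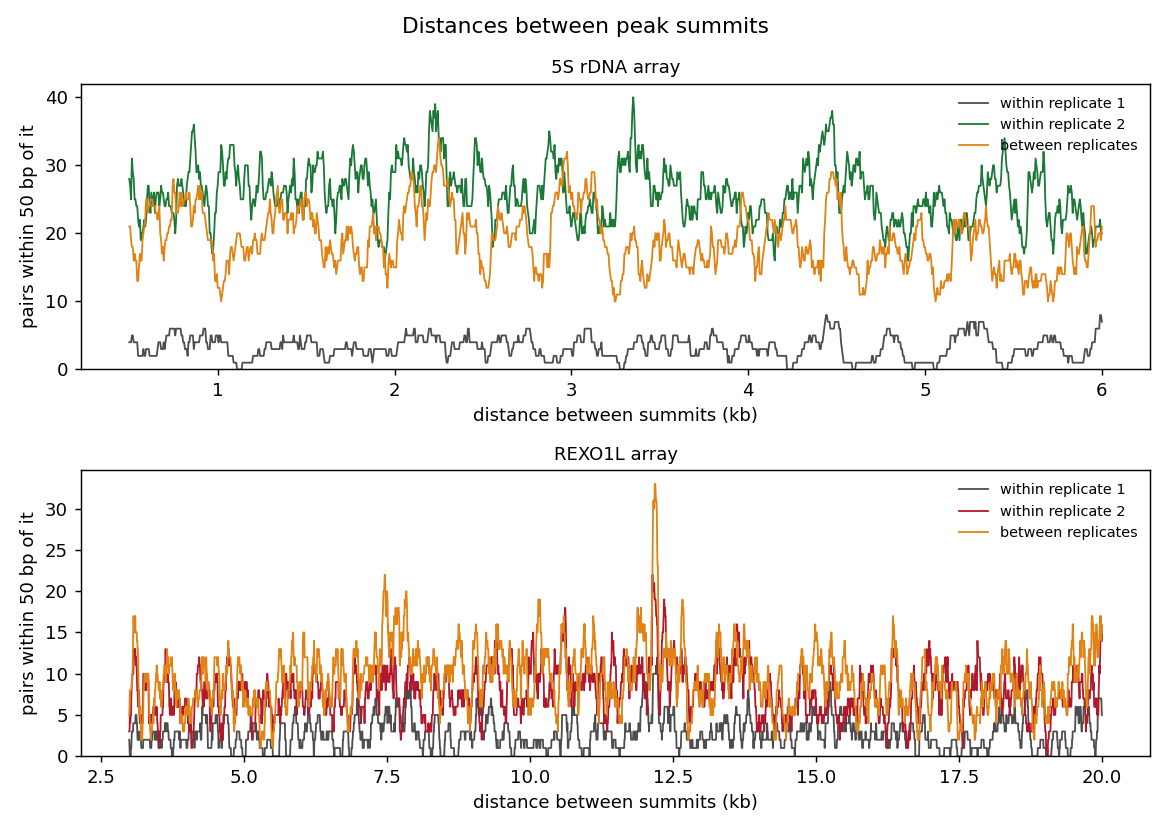
Number of summit pairs (vertical axis) within 50 bp of each distance (horizontal axis, kb) on the dense 5S and REXO1L stretches, within each replicate and between replicates. The REXO1L curves stand out at about 12.2 kb, with 33 pairs between replicates, whereas the 5S curves are uneven throughout.

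Peaks labelled with the REXO1L2P transcript lay at most of its numbered copies. The authors' annotation numbers copies 1 to 10, of which copies 4 to 10 fall within the rule, which was itself set by peak names. All 7 had a peak in both replicates, with 1 to 6 peaks and 18 to 118 tags per copy in replicate 1 and 3 to 9 peaks and 70 to 200 tags per copy in replicate 2. In replicate 1 these were 9 peaks at the start, 8 in the exon and 3 at the end of the transcript, and in replicate 2 they were 20, 12 and 9. These transcript labels stand in another column of the lists than the promoter class counted above, and peaks of both replicates were at starts, exons and ends. Of copies 1 to 3, outside the rule, copy 2 had 0 peaks in replicate 1 and 5 in replicate 2. Other labels on the array included intergenic (15 peaks in replicate 1 and 21 in replicate 2) and a second transcript that was not matched to a symbol (9 and 12).

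REXO1L peaks had more tags and still lower folds than the 5S peaks. Tags per peak were 7 to 38 (median 15) in replicate 1 and 7 to 63 (median 17) in replicate 2, which put the median peak at the 72.7th percentile of its list by tags in replicate 1 and the 79.8th in replicate 2. The median fold was 10.2 in replicate 1 and 9.38 in replicate 2, at the 0.645th and 0.949th percentiles. A p of 1e-10 was reached by 7 peaks (12.3%) in replicate 1 and 19 (19.6%) in replicate 2, against 53.9% and 52.4% of all peaks. By tags the strongest peak was chr8:86828680-86828962 in replicate 1, intergenic, with 38 tags and a fold of 10.14, and chr8:86776793-86777274 in replicate 2, at the start of copy 6, with 63 tags and a fold of 10.42.

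The called REXO1L peaks of replicate 2 again held more tags in sum, and tags outside called peaks are not counted. The tags summed to 927 in replicate 1 (92.6 per 1000000 kept) and 1956 in replicate 2 (197 per 1000000), 2.13 times as much in replicate 2. The density was alike, at 14 and 13.3 tags per 100 covered bp. Overlap was found for 31 of 57 replicate 1 peaks (54.4%, 41.6 to 66.6) and for 30 of 97 replicate 2 peaks (30.9%, 22.6 to 40.7), near the 54% of the whole list for replicate 1 and below the 77.6% for replicate 2. Of 121 merged sites, 28 (23.1%) were in both, 26 in replicate 1 alone and 67 in replicate 2 alone. Replicate 2 had more tags per 1000000 at 18 of the 28 shared sites, with a median log2 ratio of replicate 2 over replicate 1 of 0.16 (range −0.86 to 1.78), and tags correlated with a Spearman coefficient of 0.54 across these 28 sites of 1 array.

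Peaks of the same stretch to which the lists give no gene name lie just outside the rule and had like folds. They numbered 25 in replicate 1 and 43 in replicate 2, between chr8:86555238 and chr8:86738883, with 496 and 856 tags and median folds of 9.83 and 10.6. The REXO1L2P transcript label was on 7 of the 25 and on 16 of the 43. A CpG island label was on 0 of the 25 and on 5 of the 43. The nearest of them to the members began at chr8:86738226 in replicate 1 (13 tags, fold 13.73) and at chr8:86738837 in replicate 2 (7 tags, fold 14.21). On the far side, the next peak of the list began at chr8:87091509 in replicate 1 (10 tags, fold 49.54) and at chr8:87091508 in replicate 2 (7 tags, fold 39.97).

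The mitochondrial insert held few peaks, with many tags each and low folds. There were 16 peaks in replicate 1 and 15 in replicate 2 over 5.64 kb at chr1:564662-570301. RefSeq (GRCh38.p14) orders 7 mitochondrial pseudogenes in the insert: MTND1P23, MTND2P28, MTCO1P12, MTCO2P12, MTATP8P1, MTATP6P1 and MTCO3P12, copies of genes for respiratory chain and ATP synthase subunits. In the authors' annotation all 16 and all 15 peaks were named for the microRNA MIR6723, and 15 of 16 peaks in replicate 1 (93.8%) and 14 of 15 in replicate 2 (93.3%) had a promoter class, against 3.28% and 3.42% of the whole lists. The name and the class go with the place that the rule chose. None of the insert peaks had a CpG island label (0 of 16 and 0 of 15). One peak in each replicate was labelled as the mitochondrial serine tRNA gene, at chr1:567969-568067 with 23 tags in replicate 1 and at chr1:567950-568067 with 21 tags in replicate 2.

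Tags per insert peak were 22 to 133 (median 36) in replicate 1 and 13 to 121 (median 25) in replicate 2, at the 93.1st and 90.2nd percentiles of the lists. The median fold was 8.62 in replicate 1 and 7.73 in replicate 2, at the 0.389th and 0.509th percentiles. High tags with low folds were thus most marked on the insert. A p of 1e-10 was reached by 9 of 16 peaks in replicate 1 (56.2%) and 5 of 15 in replicate 2 (33.3%), against 53.9% and 52.4% of all peaks. Summed tags were 776 in replicate 1 (77.5 per 1000000 kept) and 574 in replicate 2 (57.8 per 1000000), 0.746 times as much in replicate 2, the opposite order to both other arrays. Tags per 100 covered bp were 23.2 in replicate 1 and 21.3 in replicate 2, above the density on the 5S and REXO1L arrays.

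The same places carried most insert tags in both replicates. The first site, chr1:564662-565398, held 171 tags in replicate 1 against 121 in replicate 2. The site at chr1:567222-567782 had 146 and 128 tags, that at chr1:569270-569623 had 88 and 65, and that at chr1:566055-566368 had 68 and 49. These 4 sites were the strongest in each replicate. In this order they were 737, 561, 354 and 314 bp wide, the widest merged sites of the insert. Tags per site were not scaled by width. Of 16 merged sites, 9 (56.2%) were in both, with tags correlated across these 9 sites at Spearman 0.77 and Pearson 0.88 on the log2 scale. Replicate 1 had more tags per 1000000 at 7 of the 9, with a median log2 ratio of replicate 2 over replicate 1 of −0.23 (range −1.21 to 0.33). Sites that began at 566574, 568480, 568753 and 569731 were in replicate 1 alone, and those at 565597, 569628 and 570206 in replicate 2 alone.

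Overlap on the insert was 12 of 16 replicate 1 peaks (75%, 50.5 to 89.8) and 12 of 15 replicate 2 peaks (80%, 54.8 to 93), against 54% and 77.6% of the whole lists. The interval of the first includes its list's share, and the second is near it. Peaks covered 59.2% of the insert in replicate 1 and 47.9% in replicate 2, so some overlap comes with that coverage here too. Neighbouring merged sites were a median of 273 bp apart, against 371 bp on the REXO1L array and 230 bp on the 5S array. That order rests on replicate 2: in replicate 1 alone the medians were 316 bp on the insert, 746 bp on the REXO1L array and 819 bp on the 5S array. Outside the insert, the nearest peaks before it, at chr1:543187-543249 in replicate 1 (7 tags, fold 67.43) and chr1:543184-543240 in replicate 2 (6 tags, fold 54.4), lay on TCTA repeats and were also named for MIR6723. The next ones after it began at 756122 in replicate 1 (5 tags) and 757843 in replicate 2 (5 tags).

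**Figure D3:**
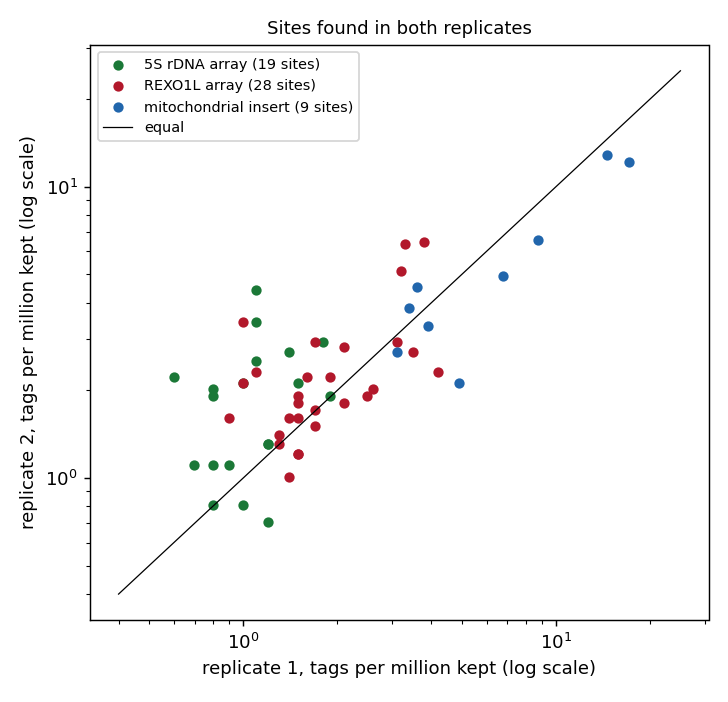
Tags per 1000000 kept tags in replicate 2 (vertical axis, log scale) against replicate 1 (horizontal axis, log scale) at each site found in both replicates, with the line of equal values. Of the 5S sites, 17 of 19 lie above the line, of the REXO1L sites 18 of 28, and of the insert sites 2 of 9.

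All 3 stretches stood at the low end of fold enrichment. The genome-wide background of the caller sets a step of 13.5 in replicate 1 and 13.6 in replicate 2, and a peak whose input was at or below that background has a whole multiple of the step as its fold. Members at such a multiple, to within 0.006, numbered 0 of 111 and 0 of 216, against 38.9% and 37.4% of the whole lists. The MER34 peak of replicate 1 missed it by 0.00705. By the caller's rule, the local input level used for the members was thus above the genome-wide level, with the MER34 peak as the nearest to it. That level is taken over windows as wide as 10000 bp, and the input over the peaks themselves was not read. Of all peaks with a fold below 10, members were 41 of 145 (28.3%) in replicate 1 and 74 of 193 (38.3%) in replicate 2. At any fold they were 111 of 22874 peaks in replicate 1 and 216 of 17285 in replicate 2. Below a fold of 15 they were 82 of 331 (24.8%) in replicate 1 and 164 of 486 (33.7%) in replicate 2, and the other peaks below 15 numbered 249 and 322. The median fold of the rest was 53.9 in replicate 1 and 54.4 in replicate 2. The part of copy number, of read placement and of the input library in these values was not tested.

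**Figure D4:**
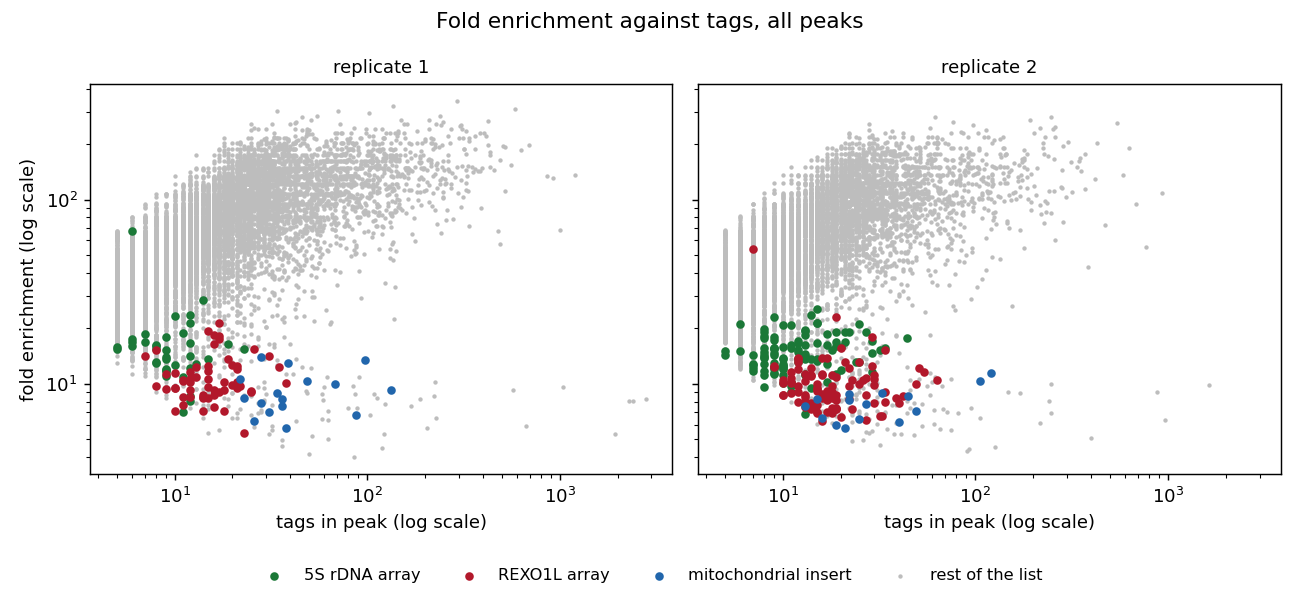
Fold enrichment (vertical axis, log scale) against tags (horizontal axis, log scale) for every peak, with the 3 groups coloured and the rest of the list in grey. Members other than the MER34 and TAGA peaks lie toward the lower edge, with median folds of 15.4, 10.2 and 8.62 in replicate 1 and 14.5, 9.38 and 7.73 in replicate 2 for the 5S array, the REXO1L array and the insert, against 53.9 and 54.4 for the rest.

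Over the 3 groups together, the peaks held 2084 tags in replicate 1 (208 per 1000000 kept) and 3913 in replicate 2 (394 per 1000000), 1.89 times as much in replicate 2. Overlap with the other list was 63 of 111 (56.8%) in replicate 1 and 62 of 216 (28.7%) in replicate 2, against 54% and 78.2% of the peaks outside the 3 groups. The replicate 1 members thus overlapped about as often as the rest of their list, and the replicate 2 members less often than the rest of theirs. The libraries were of like depth, with 10010819 kept tags in replicate 1, 9926271 in replicate 2 and 74780414 in the input. The last was 7.47 and 7.53 times as deep as the ChIP libraries.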

How the data were processed

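YBX1 ChIP-seq of HEL cells was deposited as 1 filtered and annotated peak list per replicate (2 lists), and the input has no list of its own. Build hg19, Bowtie2, MACS 1.4, Trimmomatic 0.36 and bcl2fastq 02.14.01.07 are listed in the submitters' processing notes. Per the file headers, MACS 1.4.2 called each replicate against the same input at p 1e-05, with 1 tag kept per position, tags of 36 bp, a fragment shift of 20 bp, the larger library scaled down, and local background over 1000 and 10000 bp. None of the sources used here gives the rule by which the authors filtered the lists. The deposited values are the tag count of each peak, the fold enrichment as a ratio, a false discovery rate in percent that was not used, and a score. The name of the deposited score column was lost, and its values were read as −10 times the log10 of p. Fold, score and labels are the authors' own.

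Members, lists and rules were chosen with earlier results of these data known. Every gene symbol of a member was named, except 1 that is not reported here, and single peaks when first, last, strongest or in 1 replicate alone. Of 14 symbols, 9 were current, 4 were older names and MIR6723 was not matched in the RefSeq table. Overlap means at least 1 bp, and sites are merged member peaks of both lists. Tags were scaled per 1000000 kept tags. Summit distances were counted within 50 bp, in steps of 5 bp, on the dense stretches. Shares carry 95% Wilson intervals for counting error only. Calculations used Python 3.11.15, numpy 2.4.6, pandas 2.3.3 and scipy 1.17.1, and were checked on simulated peaks. Alternatives were a stricter p, more than 5 tags, other overlap rules and leaving out each replicate.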

Additional observations from a re-analysis of the deposited data

How the results depend on the processing

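Over 33 results, 72 alternatives were computed. Of these, 49 stayed within a set limit and 23 moved beyond it. The limit was the 95% interval for a share and 1.5 times for a count of peaks. Median fold, scaled tags and median spacing have no such interval. Their limit was the standard deviation between the values of the replicates. That limit is wide where the replicates differ, as for the spacing on the 5S array. At p 1e-10 or below, the replicate 1 and replicate 2 peaks numbered 2 and 24 on the 5S array, 7 and 19 on the REXO1L array, and 9 and 5 on the insert. At that p the CpG island share was 100% in both replicates on the 5S array and 0% in both on the REXO1L array, and the median spacing of sites was 1482, 2216 and 612 bp on the 5S array, the REXO1L array and the insert. With that p in both lists, overlap was 4.17% for 5S replicate 2, and 28.6% and 10.5% for REXO1L replicates 1 and 2. With summits within 50 bp as the rule, overlap was 36.8% for 5S replicate 1, 33.3% and 19.6% on the REXO1L array, and 50% and 53.3% on the insert, for replicates 1 and 2. The whole lists were not counted under either of these overlap rules. The shares thus have no background beside them, and a lower share is no finding about the members. Fewer peaks enter at the stricter p, and beyond that the cause was not tested. Without one replicate the median spacing ranged from 232 to 819 bp on the 5S array, 478 to 746 bp on the REXO1L array and 250 to 316 bp on the insert. The dense stretches alone, and the REXO1L members with the other peaks of their stretch, were added after seeing the data. No paired analysis was possible because only the YBX1 group has replicates and no result comes from a test. Counts of 5 to 44 tags on single 5S peaks limit what 1 peak can show, and depth outside the listed peaks is unknown.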
